A study of Mus musculus with 64 samples.

Results

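The genes described here are Nnt and 4 other sources of mitochondrial NADPH, namely Idh2, Me3, Glud1 and Mthfd2l, measured by RNA sequencing in the hippocampus of 8 inbred mouse strains. They were chosen by symbol, which gave 6 identifiers of the 32227 in the count table, because Nnt is listed under 2. All 6 passed the filter on low counts, which left 17382 genes. The groups were C57BL/6J, which carries the known Nnt deletion, and 7 other strains: 129S1/SvImJ, NOD/ShiLtJ, A/J and NZO/HlLtJ are classical laboratory strains like C57BL/6J, while PWK/PhJ, CAST/EiJ and WSB/EiJ were bred from wild mice. Each strain had 4 female and 4 male samples, 64 in all, without any treatment named in the labels. The labels used here give no age and do not say whether each sample came from 1 animal, so p-values measure the spread between these samples.

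NADPH is the electron donor that the mitochondrial matrix uses to renew glutathione and thioredoxin, which in turn remove peroxides. Nnt encodes the nicotinamide nucleotide transhydrogenase of the inner membrane, which uses the proton gradient to pass a hydride from NADH to NADP+. The C57BL/6J allele lacks a run of internal exons and is known for yielding no working protein. Idh2 (the NADP-dependent isocitrate dehydrogenase of the matrix) and Me3 (the NADP-dependent malic enzyme of mitochondria) make NADPH from substrates near the citric acid cycle. Glud1 encodes glutamate dehydrogenase, which accepts either cofactor and in brain is abundant in astrocytes. Mthfd2l encodes a folate cycle enzyme of mitochondria.

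Libraries held between 16607602 and 27759221 counts, the median being 22176356.5. Levels are in CPM, the count of a gene scaled to the size of its library with TMM factors. Means are given ± SD, where a strain has n = 8 libraries and its 7 others have n = 56. Log2 fold changes and p-values were obtained with edgeR's quasi-likelihood test. The Benjamini-Hochberg method was used over all genes tested, and a gene is called at an adjusted p under 0.05. Of the 64 libraries, 129S1/SvImJ female 1 and A/J male 2 correlated least with their groups. Without both, every member kept its call in C57BL/6J. In this bulk tissue, fewer cells of a type and less RNA per cell cannot be told apart.

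Nnt, Idh2, Me3 and Glud1 all had their lowest strain mean in C57BL/6J, and Mthfd2l did not. By identifier that is 5 of 6, beside 10.9% of all genes tested whose lowest strain mean was in C57BL/6J. The members were chosen with earlier results of these data known, so the shares here describe them and do not test them as a set. Against the mean of the 7 other strains, the same 5 of 6 identifiers were called lower in C57BL/6J and 0 were called higher. By gene, with Nnt taken only as the sum of its identifiers, 4 of 5 were called, all lower. Over all genes tested, 38% were called in that contrast, 17.6% lower and 20.4% higher. The median log2 fold change of the 6 identifiers, in which Nnt counts 2 times, was -0.49, beside a median near 0 (-0.00071) over all genes. With Nnt taken only as the sum, the middle value of the 5 genes was that of Idh2, -0.34. The sizes were unequal, with Nnt and Me3 changed most and Glud1 least among the 4 genes.

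Nnt had the clearest separation of C57BL/6J from the rest. With both identifiers summed, its level in C57BL/6J was 15.0 CPM in the lowest library, 16.1 at the median and 19.5 in the highest, against 20.6, 27.6 and 36.9 CPM in the 56 libraries of the other strains. All 8 C57BL/6J libraries were therefore below all others. Of all genes tested, with the Nnt identifiers taken apart, 21 (0.121%) had such a gap, and neither Nnt identifier was among them. The means were 16.6 ± 1.67 CPM in C57BL/6J and 27.6 ± 4.55 CPM in the other strains. That is a ratio of 0.61 (log2 fold change -0.71, SE 0.038, adjusted p = 5.08e-23 by edgeR's quasi-likelihood test). The transcript was reduced rather than absent: the summed counts per C57BL/6J library ran from 297 to 428.

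**Figure D1:**
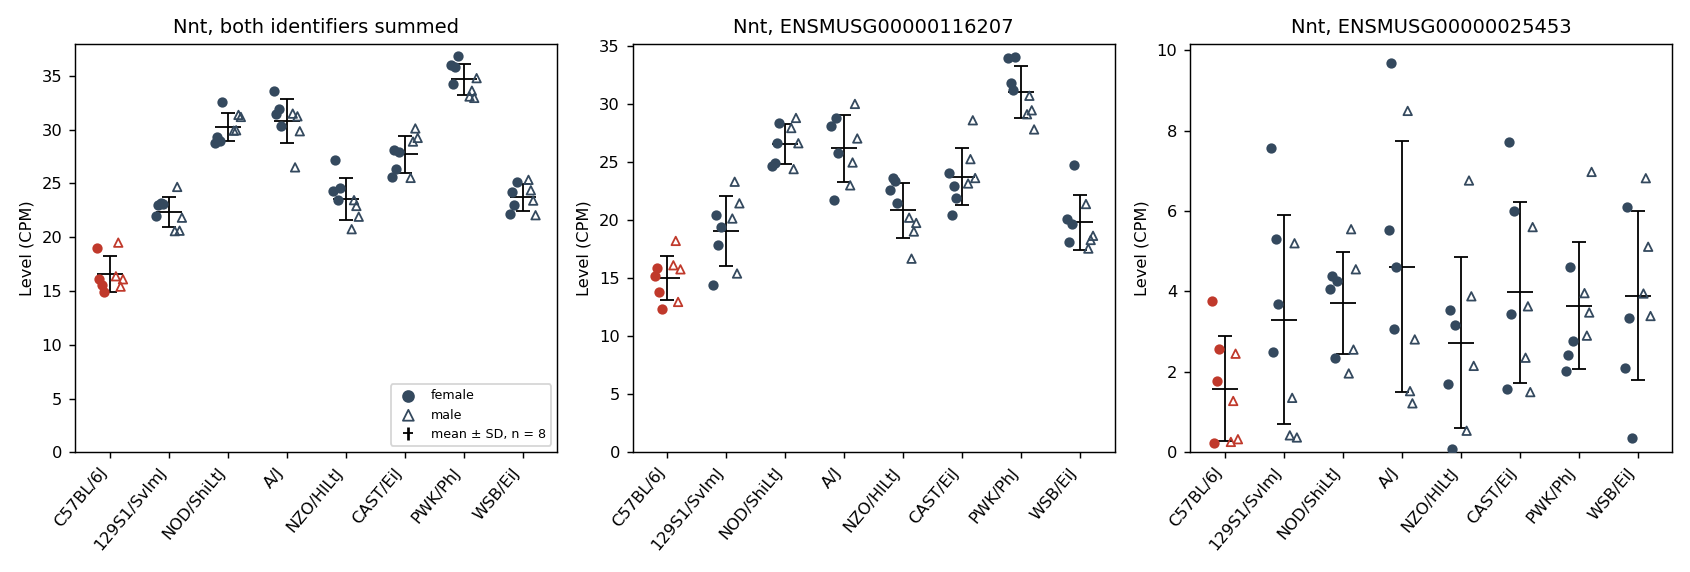
Level of Nnt (CPM, y axis, from 0) in each library by strain, for both identifiers summed and for each identifier alone; filled circles are females, open triangles males, C57BL/6J is in red, and bars give mean ± SD (n = 8). The summed level separates C57BL/6J (14.95 to 19.5 CPM) from every other library (20.57 to 36.88 CPM), while the identifier ENSMUSG00000025453 scatters within every strain.

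The 7 strains without the deletion were themselves not alike in Nnt. PWK/PhJ was highest, with a summed level of 33.0 CPM in its lowest library, 34.5 at the median and 36.9 in its highest. A/J (30.8 ± 2.06 CPM) and NOD/ShiLtJ (30.3 ± 1.34 CPM) came next, followed by CAST/EiJ (27.7 ± 1.72 CPM). WSB/EiJ (23.7 ± 1.25 CPM), NZO/HlLtJ (23.6 ± 1.93 CPM) and 129S1/SvImJ (22.4 ± 1.40 CPM) stood lowest of the 7. Neighbours in this order that the test did not separate were A/J and NOD/ShiLtJ (adjusted p = 0.736), WSB/EiJ and NZO/HlLtJ (0.886), and NZO/HlLtJ and 129S1/SvImJ (0.258), by edgeR's quasi-likelihood test. C57BL/6J was still apart from its nearest neighbour 129S1/SvImJ (log2 fold change -0.43, SE 0.048, adjusted p = 1.56e-10, edgeR's quasi-likelihood test). Its gap to PWK/PhJ was the whole range, -1.06. Of the 28 pairs of strains, 24 were called for the summed gene, where the share of all genes called per pair ran from 22.3% to 54.7% with a median of 39%.

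Strain ranges of this size were common among genes. The F test over strains gave an adjusted p of 5.87e-27 for the summed gene by edgeR's quasi-likelihood method, but 89.2% of all genes tested were called in that test. A strain range of at least 1 on the log2 scale was also reached by 27.6% of genes. In 72.9% of genes the range was smaller than that of Nnt. PWK/PhJ against its 7 others gave a log2 fold change of 0.50 (SE 0.034, adjusted p = 4.75e-19, edgeR's quasi-likelihood test), with 6 of its 8 libraries above all others.

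The 2 Nnt identifiers cover the same gene. In the GENCODE M21 annotation of GRCm38, an earlier build than that of the counts, both lie on the minus strand of chromosome 13 with 17 merged exons each. The model of ENSMUSG00000116207 spans 3339 exonic bases, all of them shared with ENSMUSG00000025453, which has 7037 exonic bases and 3698 of its own. Reads in the shared exons can be assigned to either, so the identifiers taken apart are uncertain. Their sum does not depend on the split if every read was counted once and none was dropped, which is not stated. The reference genome is that of C57BL/6J, so exons that this strain lacks are in neither model, and the counts do not check the deletion itself.

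The split between the identifiers varied from library to library. ENSMUSG00000025453 took 0.392% to 34.4% of the summed reads, with a median of 12.7%. Pooled over libraries, its share was 9.86% in C57BL/6J and 13.3% in the other strains, and the ranges over libraries overlapped (1.42% to 19.8% in C57BL/6J, 0.392% to 34.4% in the others). The residual SD within groups was 60.7% of the mean for ENSMUSG00000025453 and 9.67% for ENSMUSG00000116207, and 5.77% for their sum.

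Each identifier alone was also lower in C57BL/6J. ENSMUSG00000116207, which holds most of the reads, averaged 15.1 ± 1.91 CPM in C57BL/6J and 23.9 ± 4.67 CPM in the other strains (log2 fold change -0.65, SE 0.059, adjusted p = 1.14e-13, edgeR's quasi-likelihood test). Its groups overlapped, with 3 of 8 C57BL/6J libraries below all others. ENSMUSG00000025453 averaged 1.58 ± 1.30 CPM in C57BL/6J and 3.69 ± 2.17 CPM in the others (log2 fold change -1.19, SE 0.43, adjusted p = 0.0248, edgeR's quasi-likelihood test), with 0 of 8 C57BL/6J libraries below all others. That call was lost in each sex alone, and without C57BL/6J female 2, male 1 or male 4, where the adjusted p reached 0.0687. Its F test over strains was not called (adjusted p = 0.179, edgeR's quasi-likelihood test).

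Me3 fell in C57BL/6J and also in WSB/EiJ. Its level in C57BL/6J was 39.1 CPM in the lowest library, 44.7 at the median and 47.7 in the highest, and in WSB/EiJ it was 43.7, 45.3 and 46.7 CPM. The 2 strains overlapped in part, with 4 of 8 C57BL/6J libraries below the lowest of WSB/EiJ, and every library of both was below every library of the 6 others, the lowest of which held 59.4 CPM. With the strains grouped in this way, which was chosen after the values were seen, 3 genes in all (0.0173%) showed such a gap. C57BL/6J averaged 44.2 ± 3.15 CPM against 69.9 ± 12.9 CPM in its 7 others, a ratio of 0.643 (log2 fold change -0.64, SE 0.038, adjusted p = 7.75e-21, edgeR's quasi-likelihood test). WSB/EiJ averaged 45.3 ± 1.03 CPM against 69.8 ± 13.3 CPM in its 7 others (log2 fold change -0.60, SE 0.038, adjusted p = 7.25e-20, edgeR's quasi-likelihood test). The difference of C57BL/6J from WSB/EiJ was -0.036 on the log2 scale (SE 0.049, adjusted p = 0.605, edgeR's quasi-likelihood test).

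Me3 was highest in A/J (83.9 ± 5.65 CPM) and 129S1/SvImJ (82.1 ± 5.39 CPM), which the test did not separate (adjusted p = 0.734 by edgeR's quasi-likelihood test). NOD/ShiLtJ (74.2 ± 6.86 CPM), NZO/HlLtJ (71.0 ± 3.58 CPM), PWK/PhJ (69.6 ± 4.03 CPM) and CAST/EiJ (63.4 ± 4.65 CPM) lay between. The step of CAST/EiJ over WSB/EiJ was the widest between neighbours, at 0.48 on the log2 scale (adjusted p = 9.12e-13, edgeR's quasi-likelihood test). Set against the 4 other classical strains only, where 29.8% of all genes were called, the C57BL/6J difference was -0.81 (SE 0.040, adjusted p = 1.71e-24, edgeR's quasi-likelihood test). An antisense gene, A230065N10Rik, overlaps 569 exonic bases of Me3, and the use of strand in the counting was not stated. Its counts were 12 to 30 per library in C57BL/6J, 17 to 40 in WSB/EiJ and 9 to 41 over all strains.

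Idh2 stood out in CAST/EiJ rather than in C57BL/6J. In CAST/EiJ its level was 55.2 CPM in the lowest library, 63.8 at the median and 71.7 in the highest, and all 8 libraries were above all 56 others, as in 2.15% of all genes. The mean was 62.6 ± 5.38 CPM in CAST/EiJ against 38.9 ± 5.95 CPM in the other strains, a ratio of 1.62 (log2 fold change 0.69, SE 0.044, adjusted p = 1.81e-20, edgeR's quasi-likelihood test). WSB/EiJ (45.7 ± 5.07 CPM) and NZO/HlLtJ (45.7 ± 4.08 CPM) followed at like levels (adjusted p = 0.982 by edgeR's quasi-likelihood test).

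At the low end of Idh2, C57BL/6J held 30.7 CPM in the lowest library, 32.4 at the median and 37.3 in the highest, against 30.1, 40.6 and 71.7 CPM in the other strains. The groups overlapped, and 0 of 8 libraries were below all others. The means were 33.4 ± 2.46 CPM in C57BL/6J and 43.1 ± 9.89 CPM in the others (log2 fold change -0.34, SE 0.049, adjusted p = 7.45e-08, edgeR's quasi-likelihood test). C57BL/6J was not separated from 129S1/SvImJ (35.2 ± 3.96 CPM, adjusted p = 0.467) or NOD/ShiLtJ (35.9 ± 4.38 CPM, adjusted p = 0.216) by edgeR's quasi-likelihood test. Against the 4 other classical strains only, the difference was -0.21 (SE 0.050, adjusted p = 0.000879, edgeR's quasi-likelihood test). PWK/PhJ (37.8 ± 4.35 CPM) and A/J (38.6 ± 2.95 CPM) lay just above them. Over the 5 classical strains alone the range of Idh2 was 0.45 on the log2 scale, against 0.90 over all 8.

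**Figure D2:**
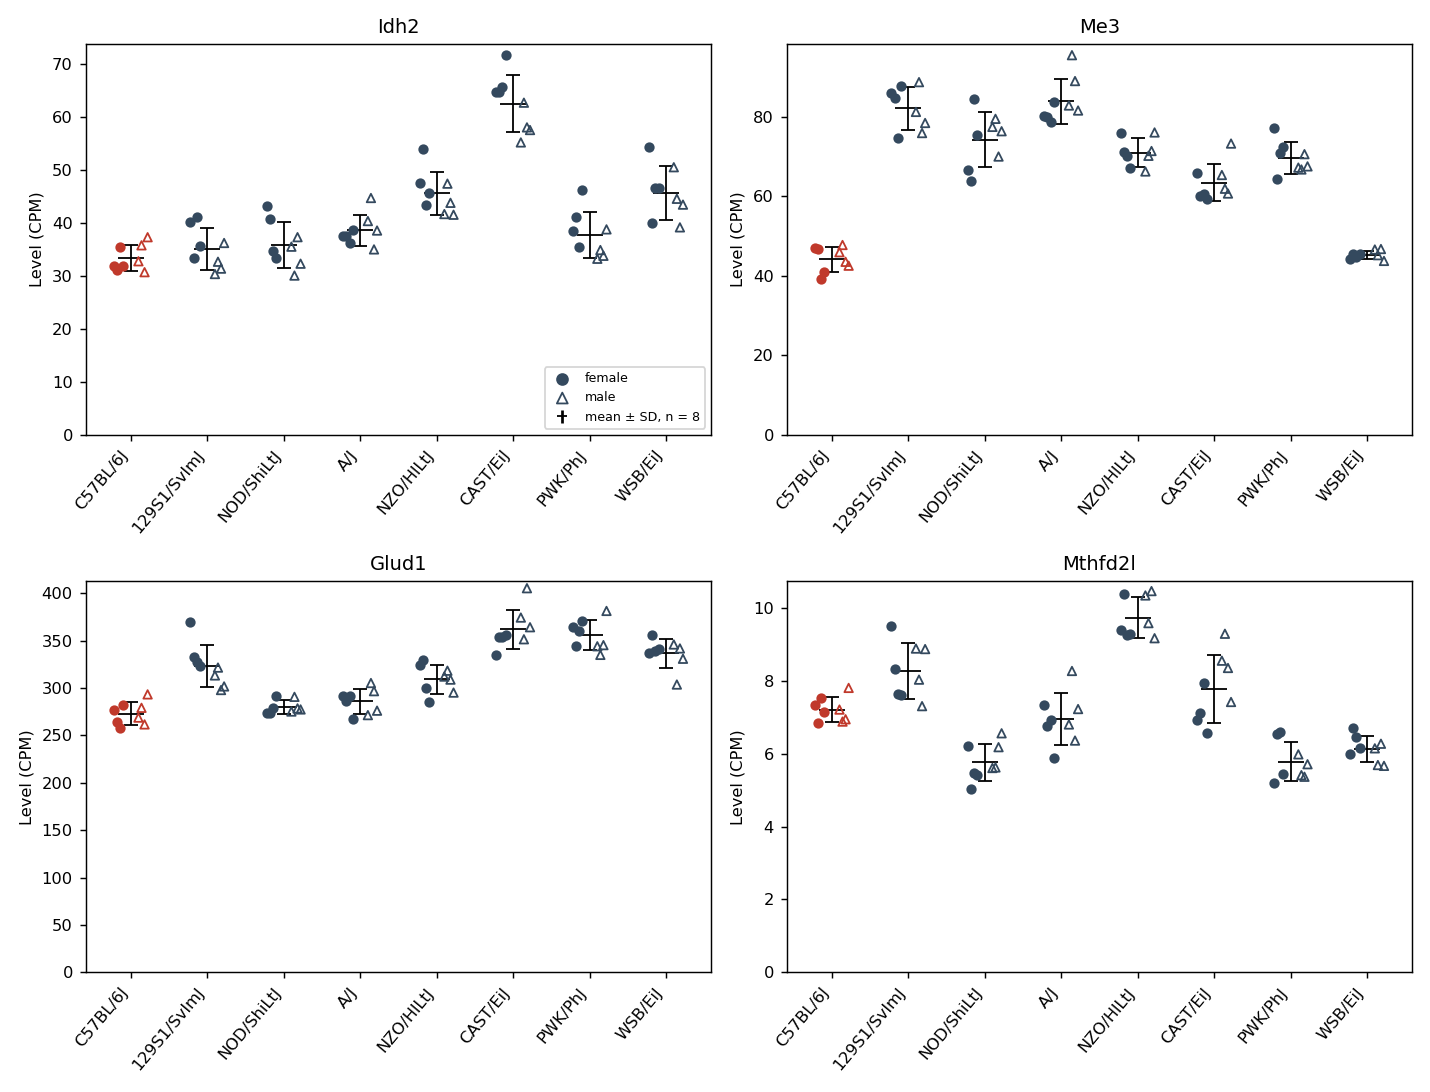
Levels of Idh2, Me3, Glud1 and Mthfd2l (CPM, y axis, from 0) in each library by strain; filled circles are females, open triangles males, C57BL/6J is in red, and bars give mean ± SD (n = 8). Me3 is low in both C57BL/6J and WSB/EiJ, Idh2 is high in CAST/EiJ (55.23 to 71.73 CPM), Glud1 varies least, and Mthfd2l is highest in NZO/HlLtJ.

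Idh2 and Me3 lie on chromosome 7, and among the members in the promoter table they had the widest strain ranges, so their promoters are shown. The sequences are the 250 bases before the RefSeq start in GRCm38.p6, read 5′ to 3′ on the gene's strand, with capitals for GGGCGG, the Sp1 motif, on either strand. They are the letters of the C57BL/6J reference, and strain variants were not analysed here. Idh2 is at chr7:80115351-80115600 on the minus strand and Me3 at chr7:89632568-89632817 on the plus strand.
Idh2: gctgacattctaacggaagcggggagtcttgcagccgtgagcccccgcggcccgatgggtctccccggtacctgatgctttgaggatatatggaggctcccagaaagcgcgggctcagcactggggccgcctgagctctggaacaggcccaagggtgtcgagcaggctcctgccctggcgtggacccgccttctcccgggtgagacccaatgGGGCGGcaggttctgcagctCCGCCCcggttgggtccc
Me3: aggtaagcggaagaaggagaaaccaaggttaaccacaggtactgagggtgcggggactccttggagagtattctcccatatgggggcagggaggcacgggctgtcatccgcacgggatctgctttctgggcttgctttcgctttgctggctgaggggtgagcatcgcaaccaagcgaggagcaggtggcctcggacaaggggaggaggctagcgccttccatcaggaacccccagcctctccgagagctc

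The Idh2 window is 67.2% G and C and holds GGGCGG 2 times, once on each strand, close to the start. The Me3 window is 60.4% G and C and holds it 0 times. The motif occurs on either strand in 32.7% of the 32851 promoter windows of this length. Among the other members, Glud1 holds it 3 times, 2 of them side by side, in a window of 82% G and C, and Mthfd2l 0 times. The motifs AAGGTCA (estrogen-related receptors, in 4.08% of windows) and TGACNNNGC (the antioxidant response element, 10.2%) were in none of these 4 windows on either strand.

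Glud1 was the most abundant member and varied least among strains. Per kilobase of exon its mean level over all libraries was 75.0 CPM, beside 16.2 for Idh2, 6.83 for Nnt as ENSMUSG00000116207, 4.56 for Me3 and 1.08 for Mthfd2l. The order per kilobase depends on the exon length of each model, which is 3339 bases for that Nnt identifier and 14624 for Me3. Without this division, Me3 averaged 66.7 CPM and summed Nnt 26.2 CPM over all libraries. In C57BL/6J the level of Glud1 was 258 CPM in the lowest library, 273 at the median and 293 in the highest. In the other strains it was 268, 324 and 406 CPM. The groups overlapped, with 3 of 8 C57BL/6J libraries below all others. The means were 273 ± 12.1 CPM in C57BL/6J and 322 ± 33.7 CPM in the others, a ratio of 0.852 (log2 fold change -0.23, SE 0.028, adjusted p = 5.44e-10, edgeR's quasi-likelihood test).

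C57BL/6J was not alone at the low end of Glud1. NOD/ShiLtJ averaged 280 ± 7.33 CPM and A/J 286 ± 13.1 CPM, and C57BL/6J was separated from neither (adjusted p = 0.469 and 0.167, edgeR's quasi-likelihood test). CAST/EiJ (362 ± 20.8 CPM), PWK/PhJ (356 ± 16.03 CPM) and WSB/EiJ (337 ± 15.3 CPM), the strains bred from wild mice, had the highest means. 129S1/SvImJ (323 ± 22.3 CPM) and NZO/HlLtJ (309 ± 15.0 CPM) lay between. Against the 4 other classical strains only, the C57BL/6J difference was -0.13 (SE 0.029, adjusted p = 0.000224, edgeR's quasi-likelihood test). The range over strains was 0.41 on the log2 scale, and in 37% of genes it was smaller.

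Since Glud1 is rich in astrocytes, their markers are given beside it. The summed level of 8 astrocyte markers was 4992 to 5303 CPM in C57BL/6J libraries and 3855 to 6855 CPM in the others. Of the 8, 1 was called higher and 3 lower in C57BL/6J, beside 20.4% of all genes higher and 17.6% lower. By strain the sum averaged 6228 CPM in CAST/EiJ, 6146 CPM in PWK/PhJ and 4692 CPM in WSB/EiJ, all high in Glud1, and 6289 CPM in NZO/HlLtJ, which was not. The part of astrocyte content in the Glud1 levels was not tested. The summed level of 8 neuron markers was 6901 to 7756 CPM in C57BL/6J and 6281 to 8610 CPM in the others. Of these 8, 1 was called higher and 1 lower, beside the same shares of all genes.

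Mthfd2l, the least abundant member per kilobase after ENSMUSG00000025453, was not called in C57BL/6J. Its level there was 6.83 CPM in the lowest library, 7.18 at the median and 7.80 in the highest, against 5.03, 6.78 and 10.5 CPM in the other strains. The log2 fold change was 0.027 (SE 0.048, adjusted p = 0.725, edgeR's quasi-likelihood test). The gene was highest in NZO/HlLtJ, with 9.17 CPM in the lowest library, 9.49 at the median and 10.5 in the highest, and 4 of 8 libraries above all others. NZO/HlLtJ averaged 9.73 ± 0.562 CPM against 6.84 ± 1.10 CPM in its 7 others (log2 fold change 0.52, SE 0.045, adjusted p = 1.37e-14, edgeR's quasi-likelihood test).

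The other strains' means of Mthfd2l descended in small steps. They were 8.27 ± 0.764 CPM in 129S1/SvImJ, 7.77 ± 0.927 CPM in CAST/EiJ, 7.21 ± 0.336 CPM in C57BL/6J, 6.95 ± 0.706 CPM in A/J and 6.13 ± 0.355 CPM in WSB/EiJ. PWK/PhJ (5.78 ± 0.543 CPM) and NOD/ShiLtJ (5.76 ± 0.508 CPM) were lowest. Among these neighbours the test separated A/J from WSB/EiJ (adjusted p = 0.0235, edgeR's quasi-likelihood test) and no other pair.

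**Figure D3:**
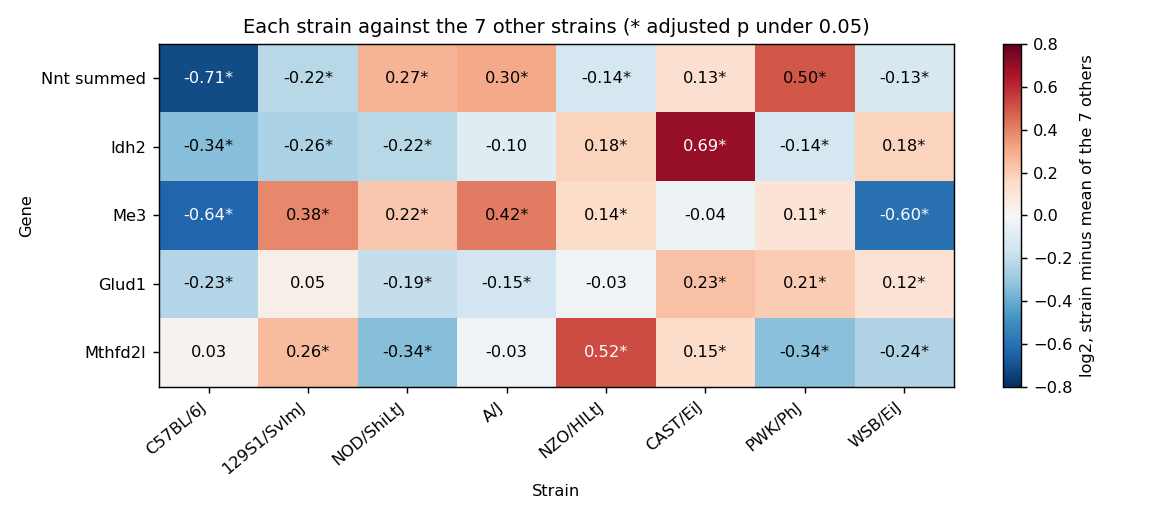
Log2 fold change of each strain against the mean of its 7 others (columns) for Nnt summed, Idh2, Me3, Glud1 and Mthfd2l (rows), with colour for size and sign and a star for an adjusted p under 0.05. Nnt, Idh2, Me3 and Glud1 all have their lowest value in C57BL/6J, but Me3 is also low in WSB/EiJ. CAST/EiJ has the highest value for both Idh2 and Glud1.

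Across strains the members did not follow 1 pattern. Of the 5 genes, 4 were called in 129S1/SvImJ against its 7 others (32.3% of all genes), 5 in NOD/ShiLtJ (39.6%), 3 in A/J (33.9%) and 4 in NZO/HlLtJ (38%). Among the strains bred from wild mice, 4 were called in CAST/EiJ (56.8%), 5 in PWK/PhJ (57.7%) and 5 in WSB/EiJ (42.3%). In CAST/EiJ all 4 were higher and in C57BL/6J all 4 were lower, while the other strains had both directions. The highest mean was in PWK/PhJ for Nnt, CAST/EiJ for Idh2 and Glud1, A/J for Me3 and NZO/HlLtJ for Mthfd2l. Over the 64 libraries, which share strain and library scaling, Pearson's r of log2 CPM between Nnt summed and the others was 0.575 for Me3, 0.354 for Glud1, 0.188 for Idh2 and -0.409 for Mthfd2l. These are descriptions over libraries that fall into strains.

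The genes whose levels were most like each member were found in the same way among protein-coding genes. For Nnt summed they were Nrip3 (r = 0.817), Ptpro (0.798) and Fbn2 (0.794), over 64 libraries. For Idh2 they were Cenps (0.884), Cth (0.859) and Gjb6 (0.847). Of the 8 astrocyte markers, only Gjb6 was among these 3 genes. For Me3 they were Hdhd3 (0.817), Mamdc2 (0.801) and Ccdc42 (0.784). For Glud1 they were Mut (0.847), Amd2 (0.826) and Mfsd2a (0.821), of which Amd2 has near-identical copies and is uncertain. For Mthfd2l they were Gnb4 (0.71), Dcdc2a (0.707) and Hpcal1 (0.701).

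Sex made no called difference in any member. Between all females and all males, 0 of 7 measures (the 6 identifiers and the Nnt sum) were called by edgeR's quasi-likelihood test, 1 had an unadjusted p under 0.05, and 0 were called by DESeq2. Over all genes, 0.167% were called. Idh2 was the nearest, with 43.4 ± 10.7 CPM in females and 40.3 ± 8.69 CPM in males (SD, n = 32 each) and a log2 fold change of 0.10 (SE 0.031, adjusted p = 0.313, edgeR's quasi-likelihood test). The ranges overlapped, at 31.1 to 71.7 CPM in females and 30.1 to 62.7 CPM in males. The interaction of strain and sex was called for 0 of 7 measures (adjusted p from 0.425 to 0.755, edgeR's quasi-likelihood test, with 1 unadjusted p under 0.05), beside 0.046% of all genes.

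The C57BL/6J differences held within each sex for the 4 genes. Nnt summed gave a log2 fold change of -0.75 in females (SE 0.054) and -0.67 in males (SE 0.054). Me3 gave -0.65 in females and -0.62 in males, and Glud1 gave -0.25 in females and -0.21 in males. Idh2 gave -0.43 in females and -0.24 in males. All of these were called by edgeR's quasi-likelihood test, with the largest adjusted p, 0.00622, for Idh2 in males. Against their 7 others, 23.7% of all genes were called in C57BL/6J females and 22.6% in C57BL/6J males.

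The wider NADPH system was followed in 4 lists of genes, whose counts stand beside 38% of all genes called in C57BL/6J, 20.4% higher and 17.6% lower. The first and the last list, with 3 of 8 and 7 of 18 genes called, lie near that share. The first list holds 8 further mitochondrial genes grouped as NADPH sources, not all of which make NADPH themselves. Among them, 2 were called higher and 1 lower in C57BL/6J, with a median log2 fold change of -0.019. Mthfd2, the paralogue of Mthfd2l in the folate cycle, rose: its level was 5.46 to 8.78 CPM in C57BL/6J and 2.68 to 6.19 CPM in the others, with means of 7.04 ± 1.17 CPM and 4.68 ± 0.777 CPM. The log2 fold change was 0.60 (adjusted p = 1.34e-09, edgeR's quasi-likelihood test), and C57BL/6J had the highest mean of the 8 strains. Mthfd1l, which follows in the same pathway, fell by 0.31 on the log2 scale (adjusted p = 1.56e-06), while Aldh1l2 was called 0.26 higher (adjusted p = 0.0295, edgeR's quasi-likelihood test). The Aldh1l2 value turned to -0.13 against the 4 other classical strains and was not called in males alone, and its exons overlap those of D10Wsu102e.

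The second list holds 9 genes grouped as cytosolic NADPH sources, not all of which are cytosolic or make NADPH themselves. Among them, 0 were called higher and 1 lower, with a median of -0.039. The gene that fell was Me1, the cytosolic malic enzyme. It averaged 77.9 ± 3.40 CPM in C57BL/6J and 99.4 ± 16.4 CPM in the others (log2 fold change -0.33, adjusted p = 3.36e-11, edgeR's quasi-likelihood test). An antisense gene, A330041J22Rik, overlaps 30 of its exonic bases. NZO/HlLtJ was lower still, at 73.4 ± 4.03 CPM, and CAST/EiJ was highest at 114 CPM.

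Among 12 mitochondrial users of NADPH and peroxide defence genes, 1 was called higher and 2 lower, with a median of -0.029. Gsr, the glutathione reductase that spends NADPH, fell most. Its level was 19.5 to 24.6 CPM in C57BL/6J and 20.4 to 46.4 CPM in the others, with means of 22.3 ± 1.53 CPM and 34.1 ± 6.67 CPM (log2 fold change -0.58, SE 0.040, adjusted p = 2.09e-18, edgeR's quasi-likelihood test). NZO/HlLtJ was at 22.8 ± 1.45 CPM, close to C57BL/6J, and NOD/ShiLtJ was highest at 41.4 ± 2.64 CPM. Msrb2, a methionine sulfoxide reductase, was 0.28 higher (adjusted p = 2.63e-05, edgeR's quasi-likelihood test). Its mean of 24.5 CPM in C57BL/6J was close to those of A/J (24.4 CPM), WSB/EiJ (24.1 CPM) and 129S1/SvImJ (23.8 CPM). PWK/PhJ (16.3 CPM), NOD/ShiLtJ (16.4 CPM) and CAST/EiJ (17.3 CPM) were lowest. Sod2, the superoxide dismutase of the matrix, was 0.065 lower (log2 fold change -0.065, adjusted p = 0.0498), a call lost in 50 of the 64 fits that left out 1 library, by edgeR's quasi-likelihood test.

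Among 18 dehydrogenases of the citric acid cycle and partners in glutamate use, 5 were called higher and 2 lower, with a median of 0.020. Glul, the glutamine synthetase of astrocytes, averaged 1383 ± 86.5 CPM in C57BL/6J and 1129 ± 156 CPM in the others (log2 fold change 0.30, adjusted p = 1.64e-10, edgeR's quasi-likelihood test). Of its exonic bases, 116 overlap those of Teddm2. Slc25a13, an aspartate and glutamate carrier, was lower (log2 fold change -0.49, adjusted p = 1.29e-04), a call lost in males alone and against the 4 other classical strains. Sdha, a subunit of succinate dehydrogenase, was 0.098 higher (adjusted p = 2.5e-05, edgeR's quasi-likelihood test). Its mean was 439.1 CPM in C57BL/6J, and PWK/PhJ was close at 435.2 CPM. None of the genes in the 4 lists reached a log2 change of at least 1, a size at which 2.3% of all genes were called higher and 1.56% lower. All 7 oligodendrocyte markers were called higher in C57BL/6J (summed level 3707 to 5572 CPM, against 2699 to 6338 CPM in the others). So were 5 of 6 endothelial and mural markers (255.5 to 274.7 CPM, against 180.2 to 285.5 CPM), beside 20.4% of all genes. The oligodendrocyte sum averaged 4934 CPM in C57BL/6J and 5169 CPM in NOD/ShiLtJ. The endothelial and mural sum averaged 263.8 CPM in C57BL/6J, 260.4 CPM in NZO/HlLtJ and 258.3 CPM in PWK/PhJ. Of 5 thalamus and habenula markers tested, 0 were called higher and 2 lower, beside 17.6% of all genes lower. The part of these cell types and regions in the changes above was not tested.

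**Figure D4:**
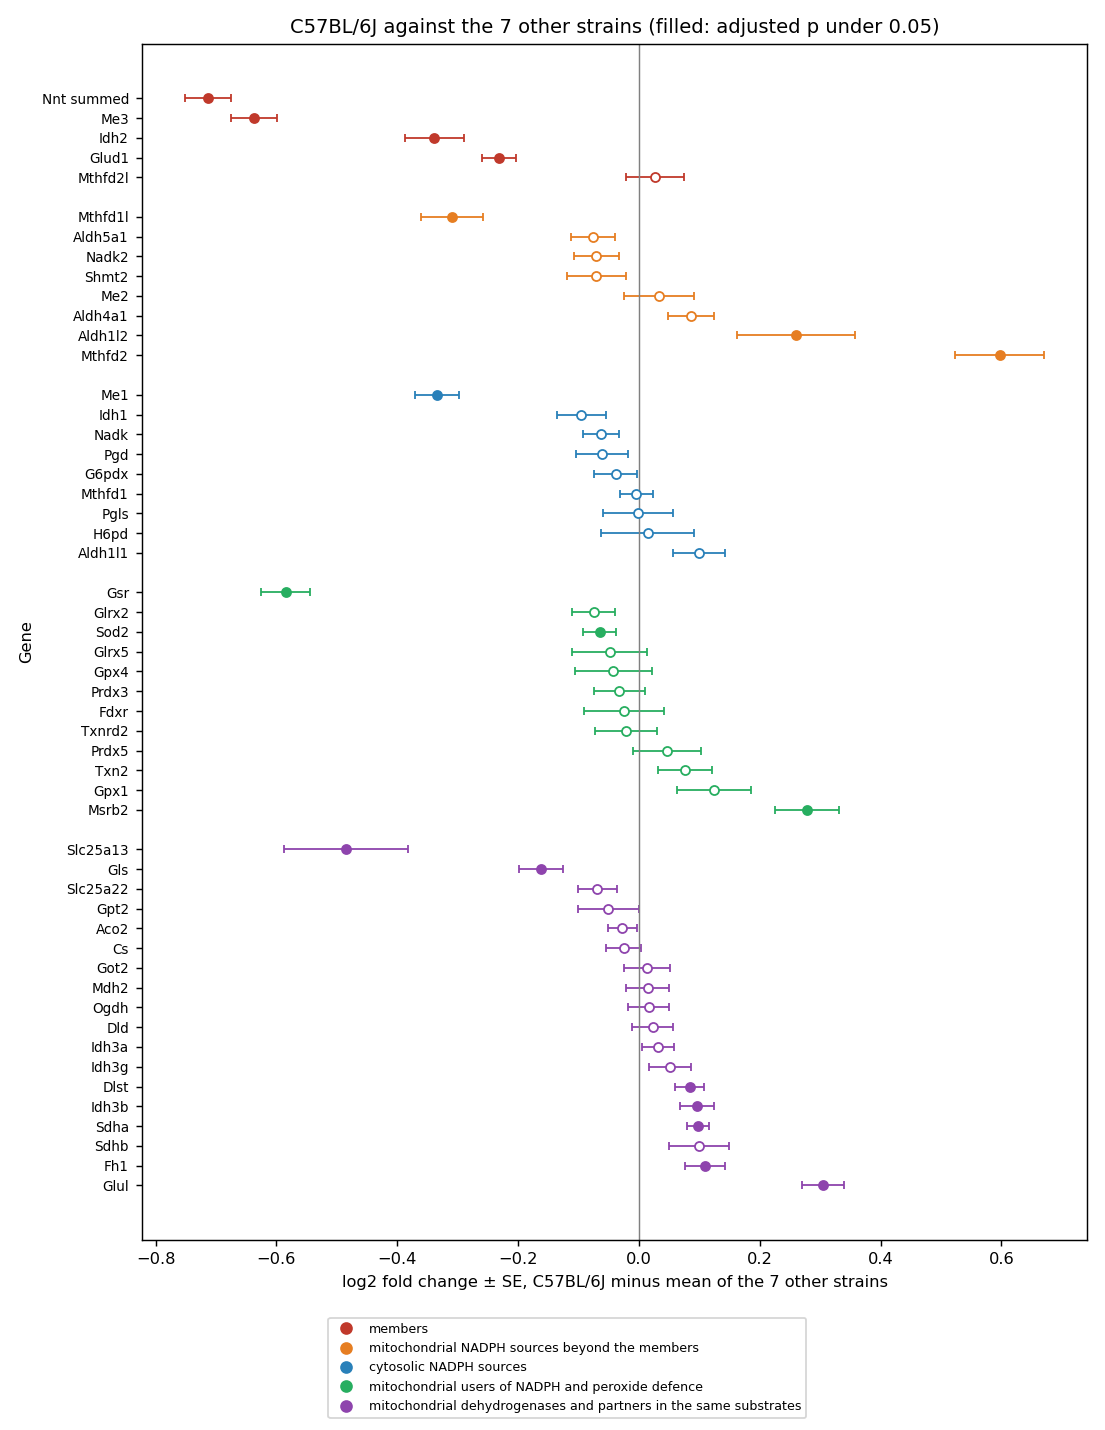
Log2 fold change (x axis) of C57BL/6J against the mean of the 7 other strains with its SE for Nnt summed, the 4 other members and the 4 lists (rows, coloured by list); filled points have an adjusted p under 0.05. Nnt, Gsr and Me3 lie farthest to the left and Mthfd2 farthest to the right, and most list genes lie close to 0.

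Strain differences were common in these lists, as in all genes. The F test over strains called 8 of 8 genes in the first list and 9 of 9 in the second. It called 10 of 12 users and 14 of 18 dehydrogenases and partners, beside 89.2% of all genes. Glrx2, a mitochondrial glutaredoxin, was highest in PWK/PhJ (77.1 ± 1.85 CPM) and lowest in A/J (43.2 ± 4.43 CPM). Slc25a13 had the highest mean in CAST/EiJ (4.73 ± 0.498 CPM), where Idh2 was highest as well.

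**Figure D5:**
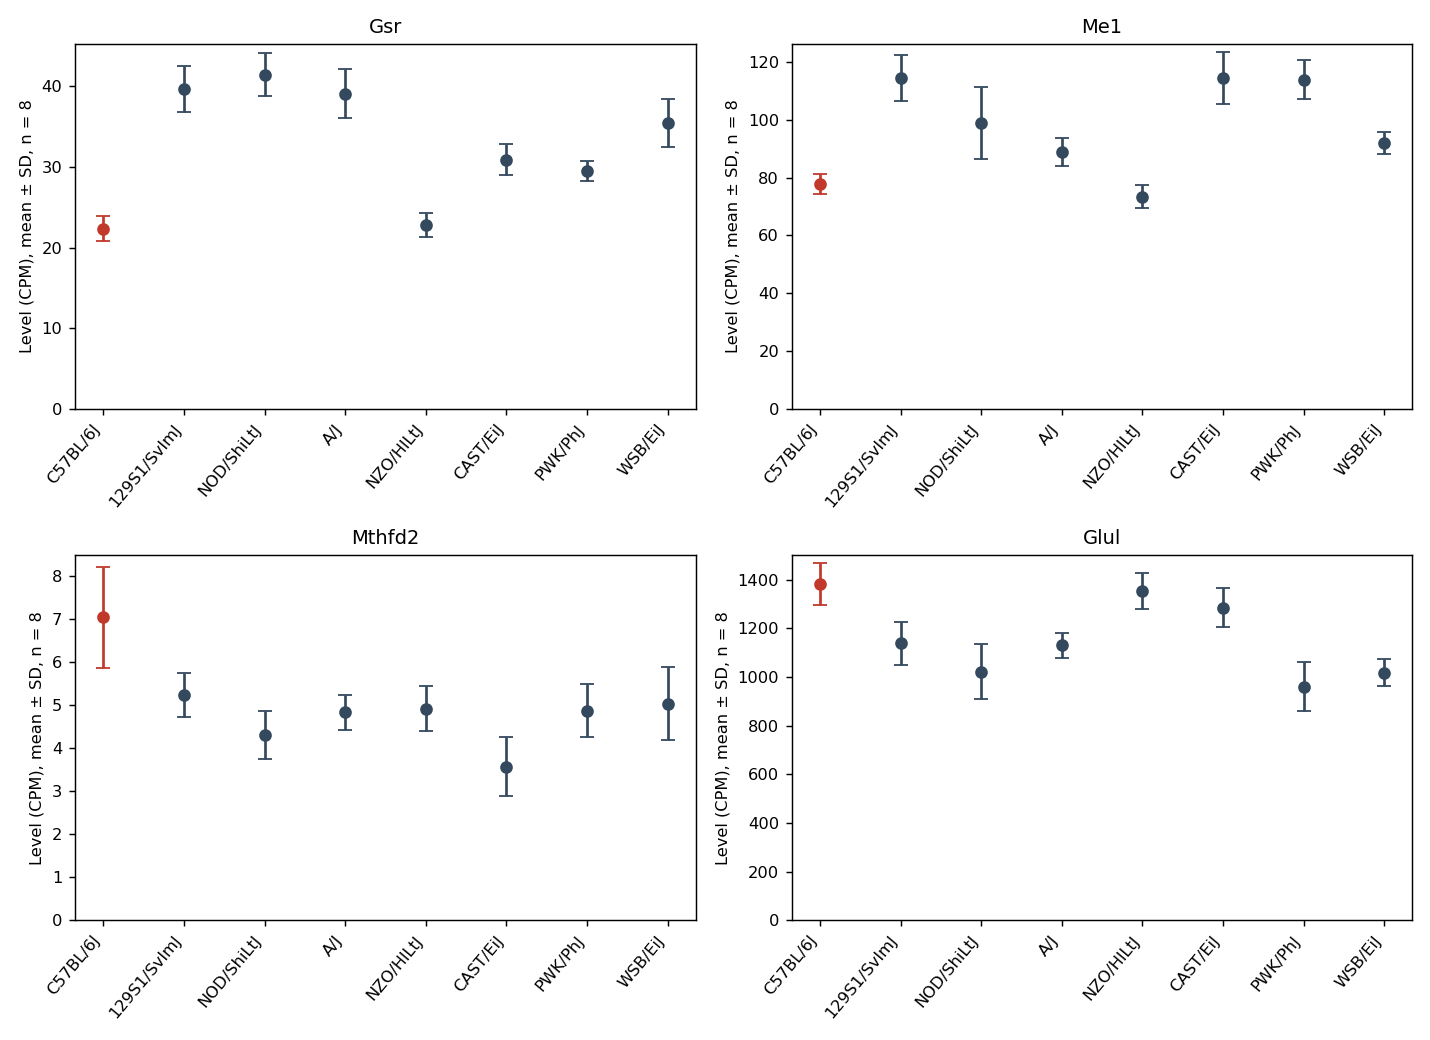
Mean level ± SD (CPM, y axis, from 0, n = 8) by strain of Gsr, Me1, Mthfd2 and Glul, the gene of each list with the smallest adjusted p in C57BL/6J, which is in red. Gsr and Me1 are low in both C57BL/6J and NZO/HlLtJ, Mthfd2 is highest in C57BL/6J (7.04 CPM), and Glul is high in C57BL/6J, NZO/HlLtJ and CAST/EiJ.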

How the data were processed

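Hippocampal RNA of 64 samples, 16 groups of 4, was sequenced by the authors after TRIzol Plus isolation and TruSeq library preparation, per the labels' protocols. The authors deposited raw counts per gene, with no normalization. Per the submitters' processing notes, GRCm39 was the genome build. The aligner, the counter, the use of strand and the genome each strain was aligned to are not given in the sources used here. Columns were matched to samples by name, and 14 names held 1 digit less than the title. Strain names follow the usual spelling, with a slash. Title numbers follow strain and sex, with CAST/EiJ females in a separate block, and what this reflects is not stated. Replicates are numbered in deposition order. The count tables of replicates were compared, and no library was a copy of another.

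Genes were kept by filterByExpr (minimum count 10, minimum total 15), which left 17382 (53.9%), and scaled by TMM. A model of 16 group means with 48 residual degrees of freedom was fitted with edgeR 4.0.16 (limma 3.58.1, R 4.3.3), and p-values were adjusted by the Benjamini-Hochberg method over all genes tested. Contrasts were each strain against the mean of its 7 others, all 28 pairs, an F test over strains, female against male, and the interaction. These contrasts share samples. The sum of both Nnt identifiers was fitted in a table where it replaced them. DESeq2 1.42.0, other scaling and filters, other strain sets and leaving out each library were the alternatives. The script was tested on simulated data.

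Symbols came from GENCODE M21, which matched 32146 of 32227 identifiers (99.7%). Promoters came from the RefSeq table of GRCm38.p6, which holds 4 of the 5 members. Named genes were all members, from each list up to 5 by the strain F test and up to 3 by the C57BL/6J contrast, the 3 genes most like each member, and all tested protein-coding genes starting within 1 Mb of Nnt. The members and lists were chosen with earlier results of these data known. Counts were lowest for ENSMUSG00000025453, at a median of 70.5 per library, and its residual SD of 60.7% of the mean was the widest of the members.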

Additional observations from a re-analysis of the deposited data

Results flagged for a closer look

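In each group of 4 samples, the highest or lowest sample was compared with the other 3 for each member, over 112 groups. In 6 of them 1 sample lay far from the rest, and chance alone gives about 1 in 20. In CAST/EiJ females, Idh2 was 71.7 CPM in female 4 and 64.8 to 65.7 CPM in the other 3. Female 1 of the same strain had 65.9 CPM of Me3, against 59.4 to 60.5 CPM in the other 3, and 336 CPM of Glud1, against 354 to 356 CPM. In NOD/ShiLtJ females, the summed Nnt level was 32.6 CPM in female 4 and 28.8 to 29.4 CPM in the others. ENSMUSG00000025453 alone was 2.34 CPM in female 3 of that strain and 4.06 to 4.39 CPM in the others. Mthfd2l was 10.4 CPM in NZO/HlLtJ female 2 and 9.24 to 9.41 CPM in the others. Leaving out any of these libraries changed no C57BL/6J call of a member. The causes were not tested.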

How the results depend on the processing

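The C57BL/6J log2 fold change of summed Nnt stayed between -0.75 and -0.67 over 10 other settings, that of Me3 between -0.81 and -0.62, that of Idh2 between -0.43 and -0.21 and that of Glud1 between -0.25 and -0.13, all called. The weakest values of Idh2 and Glud1 came against the 4 other classical strains, where Mthfd2l turned to -0.065 and Aldh1l2 to -0.13, neither called. The difference of ENSMUSG00000025453 lost its call in females (-0.82) and in males (-1.55), and ran from -1.61 to -1.002 with each library left out. The female against male value of ENSMUSG00000116207, near 0, ran from -0.0089 to 0.017 with each library left out. The C57BL/6J value of Hmgcs1, not called, ran from -0.032 to 0.0455 with each library left out. Genes called higher in C57BL/6J numbered 3538, with 2357 in females, 2164 in males and 399 at a log2 change of at least 1, and genes called lower 3061, with 1771, 1764 and 271 in the same settings. Of the cytosolic list, 2 in place of 1 were called without the libraries that stand apart and against the 4 other classical strains. With each library left out, the number was 1 to 2. Of the users and defence genes, 5 in place of 3 were called without those libraries. Of the dehydrogenases and partners, 3 in females and 4 in males were called in place of 7. At a log2 change of at least 1, 0 genes of each list were called. The Idh2 call in PWK/PhJ was lost with choroid plexus level as a covariate and without PWK/PhJ female 3. The causes were not tested. No paired analysis was possible because the labels give no replicate numbers that groups share. The counts of ENSMUSG00000025453 were as low as 2 in a library, and its biological CV, the spread left after counting error, was 68.7%.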

Other observations

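Around Nnt, 23 protein-coding genes start within 1 Mb in GENCODE M21, of which 9 were tested. In C57BL/6J against the 7 other strains, 7 of the 9 were called higher and 1 lower by edgeR's quasi-likelihood test, beside 20.4% and 17.6% of all genes. Fgf10, a fibroblast growth factor, was the gene that fell, with 17.3 ± 1.68 CPM in C57BL/6J and 22.9 ± 4.16 CPM in the others (log2 fold change -0.39). Paip1, the nearest start to that of Nnt, averaged 67.9 ± 6.85 CPM in C57BL/6J and 62.8 ± 5.46 CPM in the others (log2 fold change 0.11, adjusted p = 0.0227, edgeR's quasi-likelihood test), a call lost in each sex alone and without C57BL/6J female 1, female 4 or male 4. The gene 4833420G17Rik averaged 24.8 ± 0.926 CPM in C57BL/6J and 15.6 ± 9.95 CPM in the others (log2 fold change 1.07). Ccl28, a chemokine, averaged 4.89 ± 0.786 CPM in C57BL/6J and 2.17 ± 3.54 CPM in the others (log2 fold change 2.79). In both, the libraries of the other strains were widely spread, with an SD above the mean for Ccl28, and levels by strain are not given here. The fold change of each averages strains on the log scale, so it differs from the ratio of these means. Tmem267 averaged 34.4 ± 11.9 CPM in C57BL/6J and 19.8 ± 10.97 CPM in the others, and 3110070M22Rik 1.68 ± 0.498 CPM in C57BL/6J and 1.15 ± 0.754 CPM in the others. Zfp131 averaged 34.9 ± 1.10 CPM in C57BL/6J and 29.0 ± 4.56 CPM in the others, and Nim1k 25.1 ± 1.45 CPM in C57BL/6J and 22.1 ± 2.58 CPM in the others. These 4 were called higher. Hmgcs1, an enzyme of cholesterol synthesis, was not called, at 252.7 ± 26.3 CPM in C57BL/6J and 252.5 ± 44.1 CPM in the others (log2 fold change 0.014, adjusted p = 0.882, edgeR's quasi-likelihood test).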
